A study of Mus musculus with 3 samples.

Results

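The cell-cycle and DNA replication genes described here are 42 genes that act in G1 (8 genes), in S phase (14) or in mitosis (20). They were chosen by name, and a gene was taken to be measured by every probe whose RefSeq accession belongs to it. All 42 were on the array, among 21150 named genes, with 56 probes. Their levels were compared among ADM, duct and acinar cells of the mouse pancreas during pancreatitis, to ask how G1, S phase and mitosis genes stood in each. ADM is acinar-to-ductal metaplasia, a change of acinar cells toward a duct-like form with loss of their secretory machinery. All groups came from wild-type mice, 3 in the study, that had received caerulein, a cholecystokinin analogue that injures the pancreas, 48 h earlier, and no untreated pancreas was in the series. The cells were cut from frozen tissue with a laser. How they were recognised and whether an array holds 1 mouse or a pool are not given in the sources used here. With 1 array for each of the 3 groups there is no replicate check and no test between groups, and this number sets the limit on precision.

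A dividing cell passes through G1, S phase and mitosis in turn. In G1 the D-type cyclins with their kinase Cdk4 inactivate the retinoblastoma proteins, which frees E2F transcription factors to switch on cyclin E and the genes of DNA replication. Cdc6 and Cdt1 then load the Mcm helicase on origins, and the clamp Pcna and the enzymes of nucleotide supply serve the replication fork. Mitosis genes are expressed later and together, under the MuvB complex with B-Myb and Foxm1. The DREAM form of that complex represses them in resting cells through a promoter element called the CHR, often beside CCAAT boxes that bind NF-Y. Acinar cells of the adult pancreas rarely divide, and many re-enter the cell cycle after caerulein injury.

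The promoters of S phase and mitosis genes differ in these elements, so a few are shown before the levels. RefSeq promoter windows (build GRCm38.p6, 250 bases before to 50 after the annotated start) were at hand for 33 of the 42 genes, in 35 windows. Both strands were searched for the E2F words TTTGGCGC, TTTCCCGC, TTTCGCGC and TTTGCCGC, for the CHR words TTTGAA and TTCGAA, and for CCAAT. Each stretch holds the 160 bases before the start, 5′ to 3′ on the gene's strand, with matches in capitals. A match on the other strand appears reversed and complemented, so CCAAT can appear as ATTGG. Mki67, Cdk1, Ube2c and Kif11 are mitosis genes with low duct levels. Cdc20 has the same elements and a level within 2-fold between duct and acinar. Cenpa is a mitosis gene that, by its 1 probe, was well above background on the ADM array only.
Mki67 (chr7:135716380-135716539, minus strand): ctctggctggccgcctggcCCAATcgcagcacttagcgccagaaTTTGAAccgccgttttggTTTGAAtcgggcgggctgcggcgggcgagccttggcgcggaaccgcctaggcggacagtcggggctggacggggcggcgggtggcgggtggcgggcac
Cdk1 (chr10:69352913-69353072, minus strand): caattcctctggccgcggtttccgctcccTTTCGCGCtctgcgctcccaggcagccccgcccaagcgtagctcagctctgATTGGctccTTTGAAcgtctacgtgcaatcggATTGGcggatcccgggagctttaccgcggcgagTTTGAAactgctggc
Ube2c (chr2:164769769-164769928, plus strand): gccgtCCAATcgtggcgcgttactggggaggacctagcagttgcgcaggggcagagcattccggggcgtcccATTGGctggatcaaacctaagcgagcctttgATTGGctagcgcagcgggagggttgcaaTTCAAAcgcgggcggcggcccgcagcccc
Kif11 (chr19:37376222-37376381, plus strand): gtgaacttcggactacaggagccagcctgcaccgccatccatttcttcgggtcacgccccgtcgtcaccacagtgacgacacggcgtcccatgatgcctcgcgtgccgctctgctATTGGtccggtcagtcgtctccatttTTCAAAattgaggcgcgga
Cdc20 (chr4:118437344-118437503, minus strand): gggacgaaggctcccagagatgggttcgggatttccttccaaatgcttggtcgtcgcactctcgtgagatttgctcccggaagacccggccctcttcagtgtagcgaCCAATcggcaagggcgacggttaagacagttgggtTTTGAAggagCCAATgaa
Cenpa (chr5:30666726-30666885, plus strand): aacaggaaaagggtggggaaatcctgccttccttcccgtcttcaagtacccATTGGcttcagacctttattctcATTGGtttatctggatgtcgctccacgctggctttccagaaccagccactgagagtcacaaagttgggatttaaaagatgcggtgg
Among S phase genes, Mcm6, Mcm5 and Cdc6 hold E2F words, and in Mcm6 and Mcm5 a word on each strand overlaps the other to form 1 longer run of capitals. Rrm1 holds CCAAT boxes and no E2F word, and the G1 gene Cdk4 holds none of the words.
Mcm6 (chr1:128359706-128359865, minus strand): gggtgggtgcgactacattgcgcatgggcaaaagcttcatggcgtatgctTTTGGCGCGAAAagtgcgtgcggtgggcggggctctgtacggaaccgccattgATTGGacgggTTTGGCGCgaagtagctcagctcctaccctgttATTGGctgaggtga
Mcm5 (chr8:75109349-75109508, plus strand): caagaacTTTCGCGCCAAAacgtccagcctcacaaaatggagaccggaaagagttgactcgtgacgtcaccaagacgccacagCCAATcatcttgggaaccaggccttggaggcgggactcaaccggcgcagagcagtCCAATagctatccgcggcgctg
Cdc6 (chr11:98907991-98908150, plus strand): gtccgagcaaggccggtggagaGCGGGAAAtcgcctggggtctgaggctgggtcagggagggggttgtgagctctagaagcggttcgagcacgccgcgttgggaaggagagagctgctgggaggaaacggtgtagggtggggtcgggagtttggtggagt
Rrm1 (chr7:102441535-102441694, plus strand): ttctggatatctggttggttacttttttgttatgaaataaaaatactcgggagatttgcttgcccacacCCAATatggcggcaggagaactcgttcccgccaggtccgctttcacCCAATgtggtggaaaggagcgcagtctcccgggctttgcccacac
Cdk4 (chr10:127063375-127063534, plus strand): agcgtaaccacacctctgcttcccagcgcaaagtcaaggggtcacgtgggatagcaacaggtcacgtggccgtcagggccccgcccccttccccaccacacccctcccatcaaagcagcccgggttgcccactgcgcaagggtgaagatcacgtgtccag

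A CHR word was found in 13 of 16 windows of mitosis genes (81.2%), in 2 of 13 of S phase genes (15.4%, Mcm2 and Mcm7) and in 0 of 6 of G1 genes. Over all 32851 windows of 300 bases the share was 19.2%. CCAAT was found in 15 of 16 mitosis windows (93.8%), 9 of 13 S phase windows (69.2%) and 2 of 6 G1 windows (33.3%), against 37.4% of all. Both words occurred together in 13 of 16 mitosis windows and in 7.52% of all. E2F words had another distribution, with 6 of 13 S phase windows (46.2%: Cdc6, Cdt1, Mcm3, Mcm5, Mcm6 and Mcm7), 1 of 16 mitosis windows (6.25%, Cdk1) and 1 of 6 G1 windows (16.7%, Cdk2), against 2.26% of all. The CHR words of Cenpa, Aurka, Plk1, Bub1 and Cenpf lay 3 to 33 bases after the start, in Cenpa outside the stretch printed. Among mitosis genes Birc5 held none of the words, and Ccnb1 and Cenpe held CCAAT alone. A match is a description of these letters and not a bound site, and absence of a word says nothing of the factor.

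**Figure D1:**
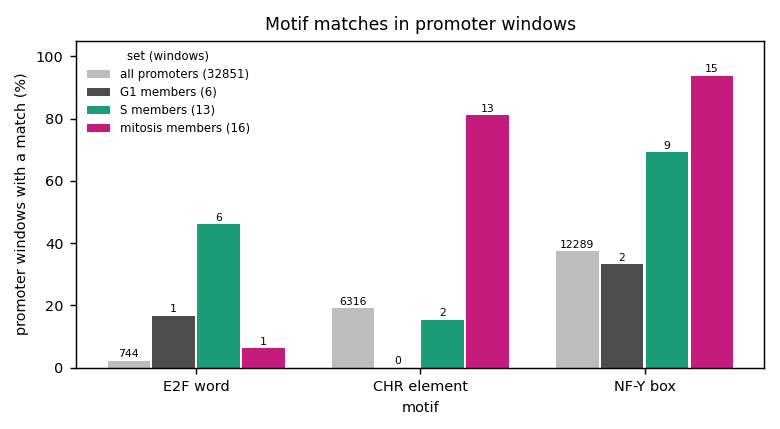
Share of promoter windows (percent, vertical axis) with an E2F word, a CHR word or CCAAT (the NF-Y box), for all windows in the RefSeq table and for G1, S phase and mitosis genes, with the number of windows with a match above each bar. The CHR bar is tallest for mitosis genes (81.2%) and the E2F bar for S phase genes (46.2%).

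**Figure D2:**
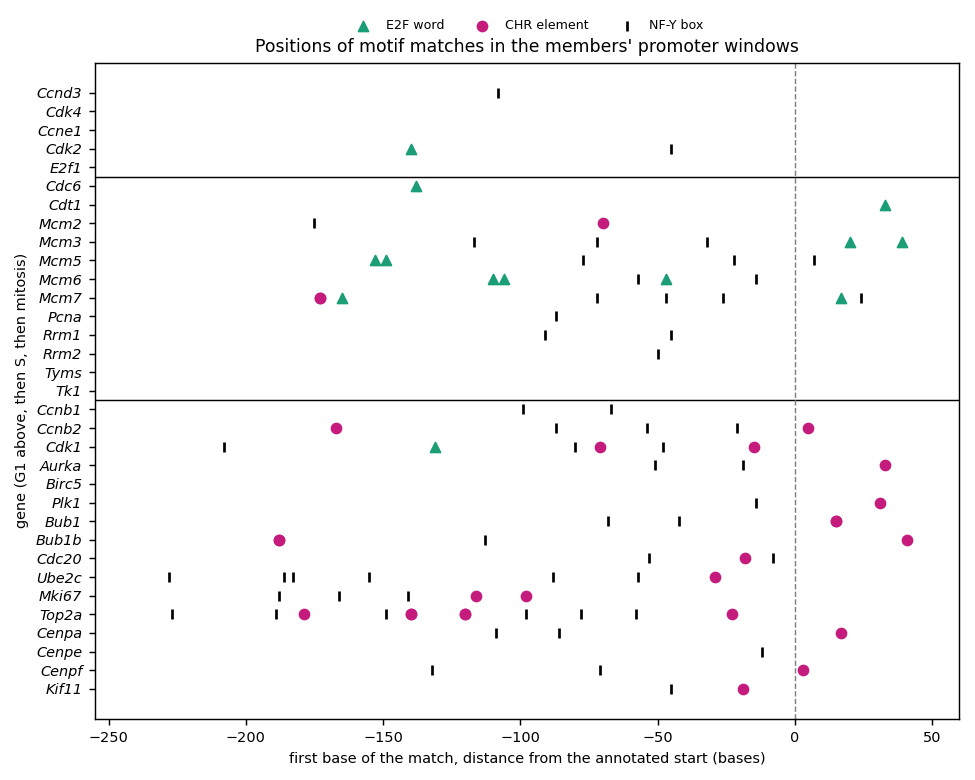
Position of each match relative to the annotated start (bases, horizontal axis) in the windows of 33 genes, with triangles for E2F words, circles for CHR words and bars for CCAAT. Mcm7 and Ccnd3 have 2 windows each, drawn on 1 line. CHR circles fill the lower block of mitosis genes and E2F triangles the middle block of S phase genes.

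The arrays differed in brightness, and acinar and duct markers separated the duct and acinar arrays in the direction of their labels. The 75th-percentile intensity was 72.2 on ADM, 95.7 on duct and 35.2 on acinar, and 49.7%, 50% and 40.7% of 55664 probes were well above background. Levels below are log2 intensity relative to that percentile of their own array. Repeat spots of a probe well above background had a median SD of 0.0896 to 0.122 log2 units within an array, which covers spotting and scanning only. All 10 acinar markers were lower in duct (median difference −6.18) and in ADM (−2.16) than in acinar, and all 9 measured duct markers were higher in duct than in acinar (2.73), while Cftr was not well above background on any array. Acinar markers had a summed level of 7956 on ADM, 1395 on duct and 24943 on acinar. On duct that sum came mostly from Ctrb1, Amy2a5 and Cpa1 (levels of 9.51, 8.75 and 7.05). Rbpjl was at −1.35 there and Cuzd1 was not well above background. Duct markers summed to 50.4, 116 and 16.0, so RNA of some acinar enzymes left a large signal on the duct array. Other cell types left signal too. Macrophage or monocyte markers (12 of 12 detected) had a summed level of 325 on ADM, 76.1 on duct and 82.9 on acinar, and ADM exceeded acinar by at least 2-fold in 10 of 12 and duct in 9 of 12. Fibroblast or stellate markers summed to 316, 314 and 82.8, with 8 of 11 higher in duct than in acinar. Lymphocyte markers summed to 10.8, 6.31 and 8.61, islet markers to 1114, 629 and 724 and erythroid markers to 13.6, 1.50 and 5.18. Neutrophil markers summed to 171, 149 and 218, but Csf3r (levels of 7.35, 7.22 and 7.77) dominates that sum, and S100a8, S100a9, Elane and Retnlg were well above background on ADM alone, S100a9 at least 10.8-fold and Retnlg at least 22.4-fold above acinar (Mpo and Cxcr2 not detected). Endothelial markers summed to 14.1, 21.0 and 14.8, a sum dominated on acinar by Kdr (level 3.75), and single markers were higher than in acinar in 4 of 6 compared in duct (median 2.67) and 4 of 7 in ADM (Tek not detected). The part of these cell types in the values below was not tested.

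Of the 42 genes, 32 were well above background on the ADM array, 27 on duct and 33 on acinar, and 26 on all arrays (61.9%, against 45.1% of all named genes). S phase genes were the most completely measured, with 14, 13 and 14 of 14. Mitosis genes were detected in 12 of 20 on ADM, 7 on duct and 12 on acinar, whereas the shares over all named genes were 61.3%, 61.3% and 50.9%. Detection of mitosis genes was thus lowest on duct, although the duct and ADM arrays detected the same share of all genes. In bulk RNA, fewer dividing cells and less RNA per dividing cell cannot be told apart. The 6 genes not well above background on any array were the cyclin E partner Cdk2, the phosphatase Cdc25c, the kinase Aurkb, the topoisomerase Top2a and the kinetochore genes Cenpe and Cenpf, each with 1 probe, and none of them was compared.

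Among the 26 genes measured on all arrays, duct had the lowest level in 21 (80.8%, against 38.6% of 9539 genes measured on all arrays). The order acinar, ADM, duct from high to low held in 14 (53.8%, against 26.5%), and ADM, acinar, duct in 7 (26.9%, against 12.1%). Both orders occurred in S phase. Acinar was highest in 6 of 7 mitosis genes and in 5 of 13 S phase genes, while ADM was highest in 7 of 13 S phase genes, in which the order ADM, acinar, duct occurred 6 times. G1 genes had no common order, with 3 of 6 in the order acinar, ADM, duct. In Mcm3, Mcm4, Rrm1 and Pcna, ADM and acinar differed by less than 0.06 log2 units, less than the SD of repeat spots, so their order is not resolved. No gene compared was lowest on ADM, lowest on acinar or highest on duct by 2-fold from both other arrays, against 7.57%, 13.7% and 16.4% of all genes.

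**Figure D3:**
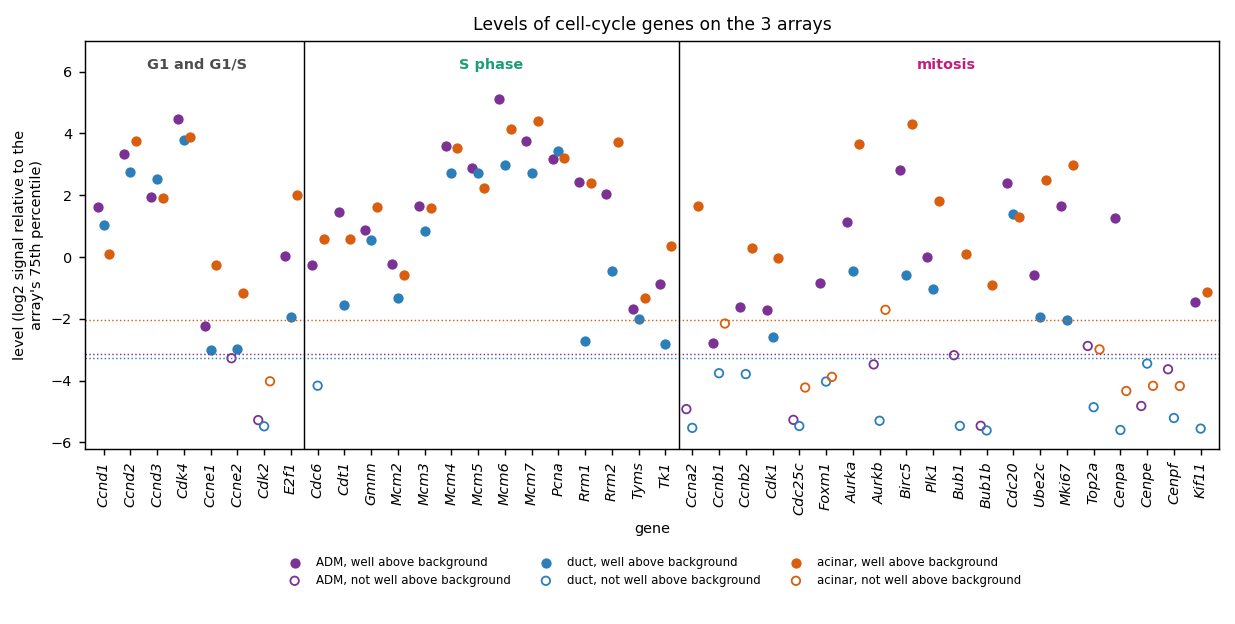
Level of each gene on the ADM (purple), duct (blue) and acinar (orange) array, as log2 intensity relative to that array's 75th percentile (vertical axis), with open circles for signals not well above background and dotted lines at the lowest signal well above background on each array. The 3 points lie within 2-fold of each other in Ccnd2, Ccnd3, Cdk4, Mcm3, Mcm4 and Mcm5, whereas in mitosis genes such as Mki67 (1.64, −2.03 and 2.97) the blue point lies far below.

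The D-type cyclins and Cdk4 lay within 2-fold between arrays by the probes that stand for them, except Ccnd1 between ADM and acinar. Ccnd1, a D-type cyclin induced by growth signals, had levels of 1.62 on ADM, 1.04 on duct and 0.10 on acinar. ADM was 2.87-fold above acinar, the lowest of the arrays. Ccnd2, another D-type cyclin, had levels of 3.34, 2.75 and 3.74, with duct 0.99 log2 units below acinar, just inside 2-fold. Ccnd3 had levels of 1.95, 2.51 and 1.90 and Cdk4, the kinase partner, 4.45, 3.80 and 3.89, again within 2-fold. Other probes of both genes differed from these. The second Ccnd3 probe read 0.05, −2.68 and 0.39 and put duct 3.07 log2 units below acinar, and of the other Cdk4 probes 1 read 3.23, 3.46 and 3.29 and the other 2.78, −0.28 and 1.23. Their place in duct is therefore not settled by these probes.

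Downstream of the D-type cyclins, the acinar array was highest. E2f1, the transcription factor that activates replication genes, had levels of 0.02 on ADM, −1.94 on duct and 2.00 on acinar. The steps between neighbouring arrays were nearly equal, 1.98 log2 units from acinar down to ADM and 1.96 from ADM down to duct, and acinar was 15.3-fold above duct. Ccne1, the cyclin that drives entry into S phase with Cdk2, had levels of −2.24, −3.01 and −0.26. The second Ccne1 probe was not well above background on any array. Ccne2, a close relative of Ccne1, had levels of −3.28 (not well above background), −2.99 and −1.15. Both cyclin E genes were highest on acinar, by at least 1.98 log2 units from ADM and 1.84 from duct, and ADM and duct lay within 2-fold of each other in Ccne1, while Ccne2 in ADM was at least 0.16 log2 units below duct.

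Helicase genes of S phase were similar on the ADM and acinar arrays, and 3 of 5 genes of the clamp and nucleotide supply were over 3 log2 units lower in duct than in acinar. Mcm6, a helicase subunit, had levels of 5.11 on ADM, 2.97 on duct and 4.13 on acinar, and it was 2.14 log2 units higher in ADM than in duct. Mcm7 had levels of 3.77, 2.70 and 4.39, and Mcm4 of 3.59, 2.72 and 3.54. Duct was lowest in these subunits. The levels of Mcm3 were 1.64, 0.83 and 1.59 and those of Mcm2 −0.23, −1.33 and −0.59, with duct lowest again. Duct was within 2-fold of acinar in Mcm2, Mcm3 and Mcm4. Mcm5, at 2.88, 2.73 and 2.23, was the helicase gene in which duct was not lowest, and its arrays stood within 2-fold of each other.

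The loading factors showed the same low duct level. Cdt1, which brings the helicase to origins, had levels of 1.47 on ADM, −1.56 on duct and 0.59 on acinar, a difference of 3.02 between ADM and duct. Cdc6, its partner in loading, had levels of −0.25, −4.17 (not well above background) and 0.59, at least 3.03 log2 units higher in ADM and 3.87 higher in acinar than in duct. The second Cdc6 probe was not well above background on any array. Gmnn, the inhibitor of Cdt1, had levels of 0.87, 0.54 and 1.60. Acinar was 1.06 log2 units above duct, and ADM was within 2-fold of both. All 9 genes of licensing and the helicase lay within 2-fold between ADM and acinar as reported, but Mcm6, 0.98 higher in ADM, reached 1.08 to 1.40 with normexp background or the other scalings, and Cdt1, 0.87 higher, reached 1.10 with scaling to the median.

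Nucleotide supply gave the largest measured gap of the S phase genes. Rrm1, the large subunit of ribonucleotide reductase, had levels of 2.41 on ADM, −2.71 on duct and 2.40 on acinar. ADM and acinar were level with each other, and duct lay 34.8-fold and 34.6-fold below them. Rrm2, the small subunit that accumulates in S phase, had levels of 2.04, −0.47 and 3.73. Acinar was 18.3-fold above duct, and ADM lay between them. Tk1, thymidine kinase, had levels of −0.89, −2.82 and 0.36 in the same order, 3.17 log2 units from acinar to duct. Tyms, thymidylate synthase, at −1.67, −1.998 and −1.33, and Pcna, the sliding clamp, at 3.17, 3.42 and 3.19, differed by less than 2-fold in every comparison.

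Mitosis genes had the largest median gap between duct and acinar. Mki67, the proliferation marker that coats mitotic chromosomes, had levels of 1.64 on ADM, −2.03 on duct and 2.97 on acinar. Acinar was 32.0-fold and ADM 12.8-fold above duct, and acinar was 1.33 log2 units above ADM. Its second probe read 1.15, −3.93 (not well above background) and 2.43 in the same order. Birc5 (survivin), a subunit of the chromosomal passenger complex, had levels of 2.80, −0.57 and 4.31, also with acinar highest and duct lowest. Another Birc5 probe read −1.69, −1.54 and 1.32, so acinar was highest by both but ADM and duct were within 2-fold by the second. Aurka, a spindle pole kinase, had levels of 1.14, −0.46 and 3.65, and acinar was highest by 2.51 log2 units over ADM.

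Genes of mitotic exit and the polo kinase kept that order, with Cdc20 as the exception. Ube2c, the ubiquitin-conjugating enzyme of the anaphase-promoting complex, had levels of −0.58 on ADM, −1.95 on duct and 2.49 on acinar. Acinar was 21.7-fold above duct and 8.37-fold above ADM. Its second probe read 1.72, −5.56 (not well above background) and 3.21, with a smaller gap between ADM and acinar (1.49 log2 units). Plk1 had levels of 0.01, −1.05 and 1.81, acinar highest. Cdc20, the activator of the same complex, had levels of 2.40, 1.40 and 1.31. It was highest on ADM, by 1.08 log2 units over acinar and 0.99 over duct, and it was the 1 mitosis gene of the 7 measured on all arrays in which acinar was not highest.

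Mitotic cyclins and Cdk1 were lower in duct and ADM than in acinar, apart from Ccnb1, which its probes left unordered. Cdk1, the mitotic kinase, had levels of −1.70 on ADM, −2.59 on duct and −0.04 on acinar, and acinar was highest by all 3 of its probes. Ccnb2, a B-type cyclin, had levels of −1.61, −3.79 (not well above background) and 0.30. Ccna2, the cyclin of S phase and early mitosis, was well above background on acinar alone, with levels of −4.92, −5.53 and 1.66. Acinar was at least 30.6-fold above duct and at least 28.0-fold above ADM for Ccna2. Ccnb1 had levels of −2.80, −3.76 and −2.15 by the probe that stands for it, well above background on ADM alone, and its other probes read −1.68, −5.58 and −1.65, and −2.98, −5.12 and −0.95. None of the probes was well above background in duct, and they do not settle the order of ADM and acinar.

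The spindle checkpoint kinases were also detected on acinar alone. Bub1 had levels of −3.18 on ADM, −5.47 on duct and 0.08 on acinar, and Bub1b of −5.46, −5.61 and −0.91. Bub1 has 10 repeat spots, and they separated the arrays in the same way. On ADM 2 of 10 were well above background and their SD was 0.42, on duct 0 of 10, and on acinar all 7 that carried no outlier flag (SD 0.096). Kif11, the motor that pushes spindle poles apart, had levels of −1.45, −5.55 (not well above background) and −1.12. It differed from the kinases in that ADM and acinar were within 2-fold, with duct at least 1.83 log2 units lower than either.

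Among the genes compared, Cenpa and Foxm1 were highest on ADM by at least 2-fold from both others. By the probes that stand for them, both were well above background on ADM alone. They thus entered through ADM and could not be lower there, and Cenpa has only 1 probe. Cdc20 (0.99 above duct) lay just short of 2-fold from both, reaching 1.08 and 1.12 with 2 of the other scalings. Cenpa, the centromeric histone, had levels of 1.27 on ADM, −5.60 on duct and −4.34 on acinar, the last 2 not well above background. The ADM level exceeded that of acinar by at least 9.94-fold and that of duct by at least 23.3-fold. Foxm1, the transcription factor of mitosis genes, had levels of −0.83, −4.03 and −3.88 by the probe that stands for it, with ADM alone well above background. Its other probe read −2.67, −5.54 and −1.24 and put acinar 1.42 log2 units above ADM, so the place of Foxm1 between ADM and acinar depends on the probe. Over all genes, 8.9% of 13322 were highest in ADM by this measure, against 2 of 33 here.

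Between duct and acinar, 33 genes were compared, of which duct was lower by at least 2-fold in 22 and higher in 0, with a median difference of −2.15. Over 13826 genes, 27.4% were higher and 24.6% lower, with a median of 0. The gap differed by phase: 3 of 7 G1 genes were lower (median −0.99), 8 of 14 S phase genes (−1.11) and 11 of 12 mitosis genes (−3.47). In 6 of the 33, duct was not well above background, so these genes entered through acinar and had to be lower. Among the 26 genes measured on all arrays, 15 were lower and 0 higher, with medians of −0.54, −1.06 and −4.11 for G1, S phase and mitosis. Duct was lowest by 2-fold from both others in 15 of 30 genes (7 in S phase, 7 in mitosis and E2f1), against 11.5% of all genes. Among these, Cdc6, Ccnb2 and Kif11 were not well above background in duct, so they could not be higher there. All 11 mitosis genes stayed at least 2-fold lower under the other background correction and scalings, as did 18 of the 22, the others being Ccne2, Cdt1, Gmnn and Mcm6. The share of higher genes among all those 2-fold apart was 52.7%, and it was 64.7% with scaling to the median and 65.7% with normexp background.

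**Figure D4:**
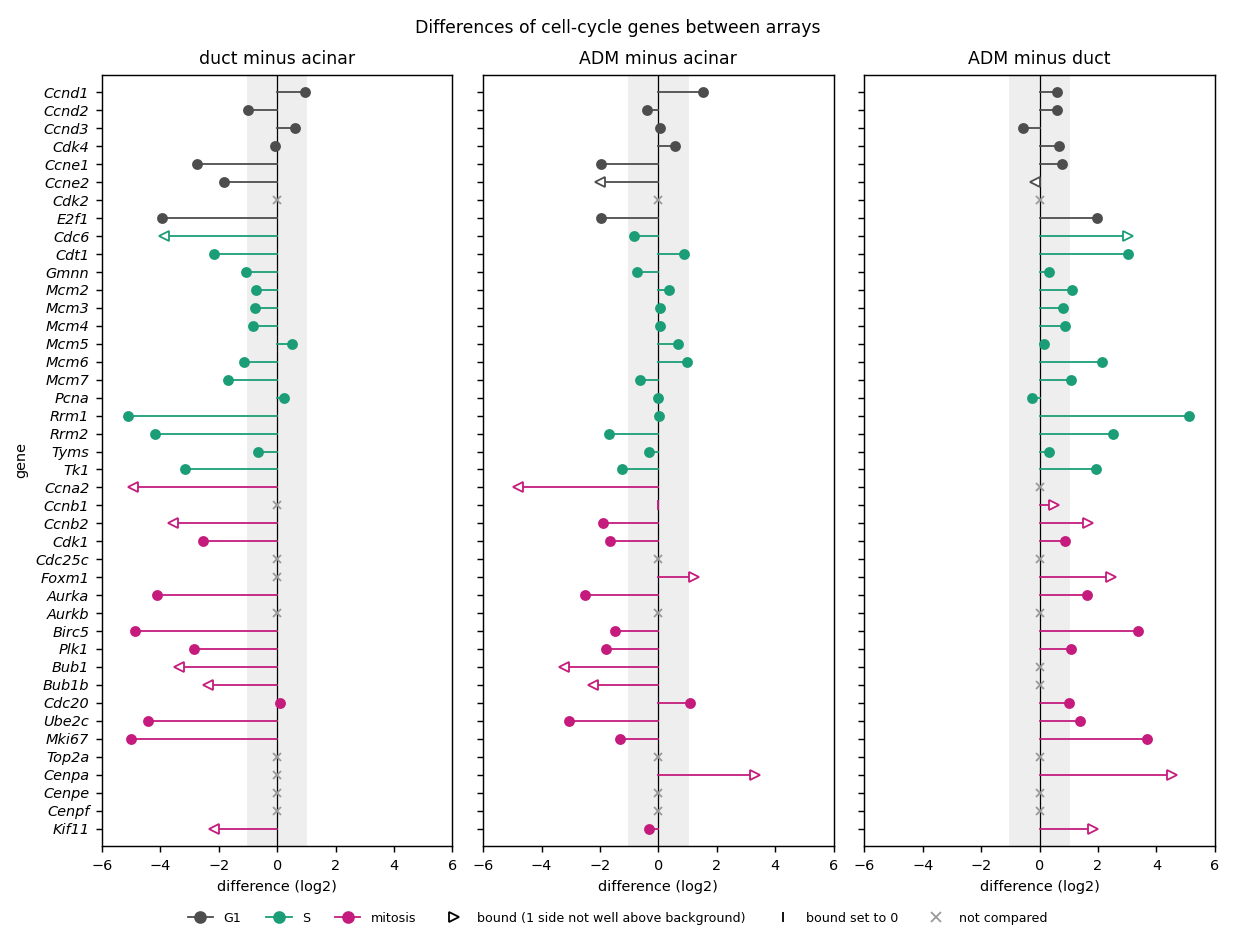
Difference of each gene in log2 units (horizontal axes) for duct minus acinar, ADM minus acinar and ADM minus duct, with filled circles for measured differences, open triangles for bounds, crosses for genes not compared and grey for the range within 2-fold. Of 33 genes compared, 22 lie left of the grey band in duct minus acinar and 18 right of it in ADM minus duct, and helicase genes lie inside it in ADM minus acinar.

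Between ADM and acinar, the mitosis median of the genes compared was below the S phase median. The other cell-cycle genes described below did not repeat that order. Of 36 genes compared, ADM was higher by at least 2-fold in 4 and lower in 15 (median −0.51), against 21.8% higher and 22% lower of 13632 genes. In mitosis 10 of 15 genes were lower and 3 higher (median −1.66), S phase genes lower in 2 of 14 (Rrm2 and Tk1) and higher in 0 (median −0.01), and G1 genes lower in 3 of 7 and higher in 1 (−0.40). In 6 of the 15 mitosis genes 1 side was not well above background, which fixed their direction. Among those measured on all arrays, 10 of 26 were lower and 2 higher, with a median of −1.66 for mitosis and 0.01 for S phase. Acinar was highest by 2-fold from both others in 15 of 33 genes (10 of them in mitosis), against 14.6% of all genes. Of these, Ccna2, Bub1 and Bub1b were well above background on acinar alone, so they entered through acinar and could not be lower there. Ccne2 and Ccnb2 each rest on a bound in 1 of the comparisons. The counts depended on the processing: with normexp, 5 genes were lower, 3 of them in mitosis, and the mitosis median was −0.86. Under every background and scaling alternative, 8 of 19 kept a 2-fold difference in their direction, with Ccnd1, Cdc20 and Cenpa higher in ADM and E2f1, Rrm2, Ccna2, Aurka and Bub1 lower, and normexp also turned the share of higher genes among all those 2-fold apart from 49.7% to 64.4%. Cenpa, Ccna2 and Bub1 rest on bounds, so their direction was fixed and only the size of their difference could change.

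Between ADM and duct, ADM was higher by at least 2-fold in 18 of 33 genes and lower in 0 (median 1.07), against 21.6% higher and 24.8% lower of 14475 genes. Mitosis genes were higher in 9 of 12 (median 1.64), S phase genes in 8 of 14 (1.08) and G1 genes in 1 of 7 (0.59). In 5 of the 12 mitosis genes and in the S phase gene Cdc6 duct was not well above background, so these entered through ADM and could not be lower. Of the 26 measured on all arrays, 13 were higher and 0 lower (5 higher in mitosis). With normexp 9 of the genes were higher, and 9 kept 2-fold under every background and scaling alternative, namely Cdc6, Cdt1, Mcm6, Rrm1, Rrm2, Birc5, Ube2c, Mki67 and Cenpa. Cdc6 and Cenpa rest on bounds, so their direction was fixed and only the size of their difference could change. The median ADM minus duct difference of macrophage or monocyte markers was 2.40, and their part was not tested. The 3 comparisons share arrays, so their values are not independent of each other.

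Probes of the same gene did not always match. Of the 42 genes, 10 had several probes. For duct against acinar, 8 other probes could be compared, 6 had the sign of the gene's value, and so did all 5 from genes at least 2-fold apart. For ADM against acinar, 6 of 11 had the same sign, and 5 of 6 from genes 2-fold apart, with Foxm1 opposed by at least 2-fold. For ADM against duct, 6 of 9 had the same sign, and 3 of 4 from genes 2-fold apart. Values of the other 32 genes rest on 1 probe each.

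S phase genes with and without an E2F word had overlapping differences. Between duct and acinar, the 6 genes with a word had differences from −3.87 to 0.50 (median −1.42) and the 6 with a window and no word −5.11 to 0.23 (median −1.96). Between ADM and duct the medians were 1.60 and 1.51. Mitosis genes with a CHR word, 10 of them compared, had differences from −5.00 to 0.09 between duct and acinar, and Birc5, with no word in its window, was at −4.88.

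Another 153 genes of the same phases were compared in the same way. Of 48 other mitosis genes compared, 27 were at least 2-fold lower in duct and 3 higher (56.2% and 6.25%, median −1.59). Of 41 other replication genes, 21 were lower and 7 higher (51.2% and 17.1%, median −1.28). Of 24 other G1 genes, 8 were lower and 3 higher (33.3% and 12.5%, median −0.53). Over all genes compared, 24.6% were lower and 27.4% higher. In 24 of the 48, 14 of the 41 and 4 of the 24, 1 array was not well above background, so they could differ in 1 direction only. Cdca3, a trigger of mitotic entry, was 5.54 log2 units lower in duct, Racgap1, a cytokinesis regulator, 4.33, and Cdca8 (borealin, another passenger subunit), the kinetochore gene Spc25, Cks2 and Haspin at least 5.98, 5.76, 4.51 and 4.27. Among replication genes, the polymerase subunit Pold2 was at least 5.26 lower in duct, the single-strand binding protein Rpa2 at least 4.79, the methylation reader Uhrf1 4.56, Gins4 of the helicase complex 4.17 and Wdhd1 3.82. Slbp, which binds histone mRNA, went the other way, with levels of −3.93 (not well above background), 5.41 and −1.06 and 6.47 log2 units higher in duct, and by its second probe at least 1.24 higher. In G1, E2f3 was 2.68 lower, Lin37 of the MuvB complex 2.44, Rb1 2.40, the E2F partner Tfdp1 2.17 (1.19 by its second probe) and Myc 2.08.

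Between ADM and acinar these genes were spread to both sides. The 42 genes had a lower median in mitosis than in S phase, and these lists did not repeat it. Over all 13632 genes compared, 22% were lower in ADM and 21.8% higher (median 0). Of 56 other mitosis genes, 17 were lower and 9 higher (30.4% and 16.1%, median 0.00). Of 42 other replication genes, 16 were lower and 7 higher (38.1% and 16.7%, median −0.72). Of 23 other G1 genes, 7 were lower and 3 higher (30.4% and 13%, median −0.18). Lower in ADM were Cdca8, Haspin and Cdca2 (by at least 5.86, 4.14 and 3.63 log2 units), Gins1 (at least 4.24), Wdhd1 (3.97), the flap nuclease Fen1 (2.99), Pold2 (2.08), Gins4 (1.86) and Cks1b (1.42). Higher in ADM were Fzr1, the activator of the anaphase-promoting complex in G1 (3.91), the polymerase subunit Pold1 (at least 3.84), the checkpoint ATPase Trip13 (at least 3.81) and the condensin subunit Ncapd3 (at least 3.35). Between ADM and duct, 21.6% of all 14475 genes compared were higher in ADM and 24.8% lower (median −0.05). Of 52 other mitosis genes, 30 were higher and 2 lower (57.7% and 3.85%, median 1.19). Of 42 other replication genes, 18 were higher and 8 lower (42.9% and 19%, median 0.87). Of 24 other G1 genes, 4 were higher and 5 lower (16.7% and 20.8%, median 0.26), both shares below those of all genes. Among mitosis genes higher in ADM, the largest were the spindle protein Tacc3 (5.31), Trip13 (at least 5.04), Spc24, Spc25 and Ncaph (at least 4.53, 4.47 and 4.45) and Cenpk (3.99). In replication they were Pold1 (4.23), Asf1b (at least 3.73), Orc4 (3.51), Pold2 (at least 3.19) and Uhrf1 (3.16), and in G1 Rb1 (3.45), E2f3 (2.68) and Lin37 (1.77). Slbp (at least 8.56) and Tfdp2 (1.58) were lower in ADM than in duct. Second probes kept these signs with smaller values between ADM and duct, 1.29 for Slbp, 0.76 for Tfdp2 and 1.29 for Cenpk, and bounds of at least 1.41 for Orc4, 0.80 for E2f3 and 0.39 for Uhrf1. The second probe of Cdca8 left its order between ADM and acinar undetermined. For Fzr1 the second probe was well above background on neither ADM nor acinar. It put ADM at least 0.77 log2 units below duct, whereas the probe that stands for Fzr1 put ADM 2.44 above duct.

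**Figure D5:**
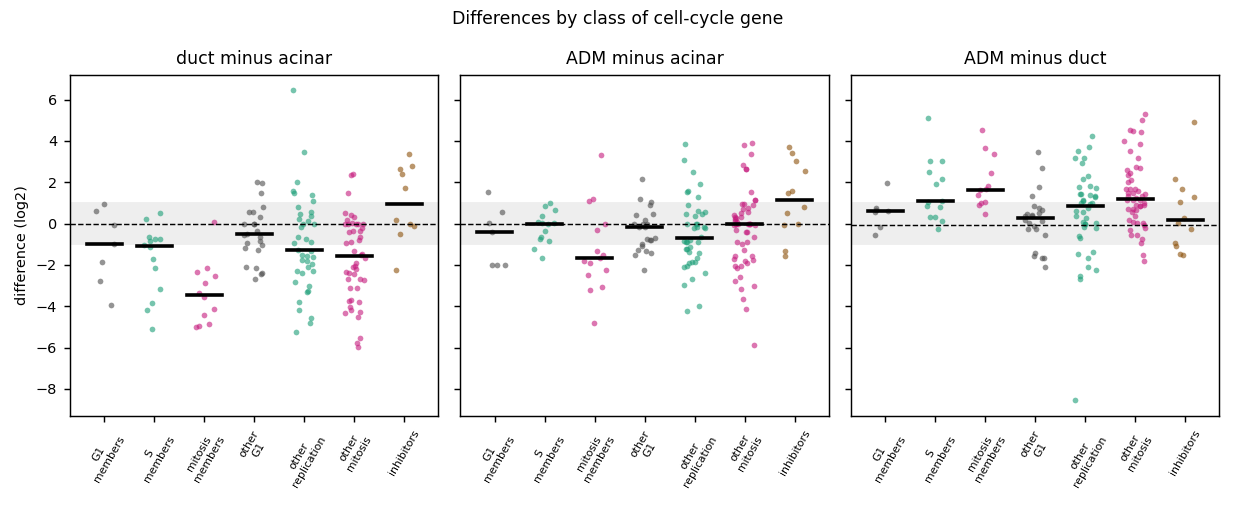
Differences in log2 units (vertical axis) of single genes by class, for duct minus acinar, ADM minus acinar and ADM minus duct, with 1 point a gene, black bars at the class medians, a dashed line at the median of all genes and grey for the range within 2-fold. The medians step down from G1 (−0.99) to mitosis members (−3.47) in duct minus acinar, and the median of the inhibitors is 0.96.

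Inhibitors of the cell cycle had another distribution. Of 10 compared between duct and acinar, duct was higher by at least 2-fold in 5 and lower in 1 (50% and 10%, median 0.96), against 27.4% and 24.6% of all genes. Of 12 between ADM and acinar, 6 were higher in ADM and 2 lower (50% and 16.7%, median 1.14), against 21.8% and 22% of all genes. Acinar was not well above background in 3 of the 10 and 5 of the 12, so these entered through the other array and could not be lower there. Cdkn1b (p27), an inhibitor of cyclin-dependent kinases in resting cells, had levels of 2.60 on ADM, 3.69 on duct and 1.03 on acinar, lowest on acinar and highest on duct. Cdkn1a (p21), a target of p53, was well above background on ADM alone, with levels of 1.65, −5.49 and −2.97, at least 3.69 log2 units above acinar and 4.92 above duct (at least 1.40 and 2.63 by its second probe). Ccng2 (1.44, 1.40 and −1.98), Gadd45a (1.71, 1.96 and −0.85) and Btg1 (2.87, 3.80 and 1.41), genes linked to growth arrest, were lowest on acinar. Cdkn2b, an inhibitor of Cdk4, was at least 3.01 log2 units higher in ADM than in acinar, and its second probe left the order undetermined. Its relatives Cdkn2c and Cdkn2d were 1.51 and 1.49 lower in ADM than in duct, and Ccng1 was lowest on duct, 2.25 below acinar and 2.18 below ADM.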

How the data were processed

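Spot intensity on a linear scale was taken from the deposited scanner tables. Agilent Feature Extraction 11.5.1.1 had corrected it for background and for trends across the slide, per the file headers, without scaling arrays to each other. Flags of 0 or 1 in the deposited tables mark outlier spots, saturation and signals well above background. The series' deposited value table, in log2 units, is the same signal less 1 constant for each array. Per the labels, 1.181 ng of RNA was amplified and 2.0 µg of cDNA was labelled with Cy3.

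Control spots (3671 of 62976 per array) and outlier spots (110 to 117) were dropped, and with them 17 probes. Each probe's spots were averaged as log2 intensity, and levels are relative to the 75th percentile of 55664 probes. That percentile was kept although fewer than 50% of probes passed background on 2 arrays, and a percentile over probes detected on every array was tried too. The arrays shared 1 slide, and saturated spots numbered 0. RefSeq accessions gave 28020 probes a name and left 27644 unnamed, through a gene table of assembly GRCm38.p6 used for names only, since the array's own annotation is on mm9. The probe with the highest mean level stood for a gene with several.

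Genes with a signal well above background on either array of a pair were compared. For an array below that limit, the larger of its signal and its dimmest signal well above background was used, and the difference is then a bound ("at least"), or 0 where its sign was undetermined. Genes were counted at 2-fold, and lists are described by counts and medians beside those of all genes. With 1 array a group no test was run. A summed level adds the linear levels of a list's genes, in multiples of the 75th-percentile signal.

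Some marker genes are not reported here by name. The genes, their phases (from textbook roles), the other lists, markers and motif words were chosen with earlier results of these data known. All 42 genes are named. Of the other lists, up to 6 genes a comparison are named, by size of difference, if 2-fold and direction held under each alternative for background and scaling. Alternatives were limma's normexp background (limma 3.58.1, offset 50), 3 other scalings, the value table, other probe rules, other filters on dim probes, outlier spots kept and a 4-fold threshold. The scripts were tested on simulated data. Python 3.11.15 with pandas 2.3.3 and R 4.3.3 were used.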

Additional observations from a re-analysis of the deposited data

How the results depend on the processing

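No paired analysis was possible because each group has 1 array, and for the same reason no array could be left out. The counts of genes at least 2-fold apart moved with the rule for probes, the background correction, the threshold and the filter on dim probes. The second-brightest probe leaves only genes with several probes, so its counts are smaller by construction. With it, the number lower in duct than in acinar was 7 in place of 22 (1 in G1, 0 in S phase, 6 in mitosis), the number lower in ADM than in acinar 4 in place of 15 (0, 0 and 4) with 0 higher in place of 4, and the number higher in ADM than in duct 5 in place of 18 (0 in S phase, 4 in mitosis). Other cell-cycle genes then gave 10 in place of 56 lower in duct, 8 in place of 40 lower in ADM than in acinar and 7 in place of 52 higher in ADM than in duct. Foxm1 turned to −1.42 between ADM and acinar and Birc5 to −0.15 between ADM and duct.

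With normexp, 5 S phase genes in place of 8 were lower in duct than in acinar. Against acinar, 5 genes were lower in ADM (1 in G1, 1 in S phase, 3 in mitosis), and 14 other cell-cycle genes. Against duct, 9 genes were higher in ADM (0, 5 and 4) and 26 others. The cause of the smaller counts was not tested. At 4-fold, 5 S phase genes were lower in duct than in acinar, 5 genes lower in ADM than in acinar (0, 0 and 5) and 1 higher, 9 higher in ADM than in duct (0, 5 and 4), and other genes 18 lower in ADM than in acinar and 26 higher than in duct.

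Keeping only genes above background on all arrays gave 6 mitosis genes lower in duct and 6 lower in ADM than in acinar, 5 higher in ADM than in duct, 2 genes higher in ADM than in acinar, and other genes 33 lower in duct, 20 lower in ADM than in acinar and 27 higher in ADM than in duct. With no filter, 17 mitosis genes and 88 other genes were lower in duct than in acinar and 1 gene was lower in ADM than in duct. Scaling to the median made 2 genes higher in duct than in acinar in place of 0, and it moved all genes above background on both arrays by a median of 0.39 there, 0.23 for ADM minus acinar and −0.16 for ADM minus duct. The mean of a gene's probes gave 3 G1 genes higher in ADM than in duct in place of 1. With the shorter motif set, 0 mitosis windows held an E2F word and 1 S phase window a CHR word.

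Of the main counts recomputed, 150 stayed within 1.5 times the reported value, 47 were smaller and 5 larger, which are those given here. Among the other values recomputed, 1084 were classed as the same, 521 as moved and 2 as reversed, and not all of these are given here. Weak signal limits the mitosis genes most, since 13 of 20 in duct have only a bound or no value.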
